A study of Mus musculus with 25 samples.

Results

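The comparison described here sets the colon of mice labelled Card9-/- against that of wild-type mice before any dextran sulphate sodium (DSS), the sulfated polysaccharide that injures the colon lining when it is given in drinking water. Its members were the arrays whose titles give day 0, 3 from wild-type and 3 from Card9-/- mice, which are 6 of the 25 arrays of the series. Each array held the Cy3-labelled RNA of 1 colon sample from 1 female mouse aged 8 weeks. The strain given for every mouse is C57Bl/6j, the Card9-/- allele was on that background, and all mice came from specific-pathogen-free facilities. No mouse of these 6 had received DSS. The other arrays came from other mice of both genotypes, killed after 7 days of DSS or at day 12 after a recovery on plain water. The labels do not say whether the mice were littermates or shared cages, nor which stretch of colon was taken. Intestinal bacteria differ between cages, and this cannot be told apart from genotype here. The p-values rest on the spread between mice within the 6 groups of genotype and day over all 25 arrays. They do not rest on the 6 day 0 mice alone, unless this is stated.

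CARD9 is an adaptor protein of myeloid cells. Receptors for fungal sugars, such as dectin-1 (Clec7a), dectin-2 (Clec4n) and mincle (Clec4e), signal through the kinase Syk and protein kinase C delta to CARD9, which assembles with BCL10 and MALT1 and switches on NF-kB and cytokine genes. In the gut this arm is known for its part in the IL-17 and IL-22 response and in control of fungi and bacteria, and the series title ties it to bacterial tryptophan products that bind the aryl hydrocarbon receptor (AhR). The day 0 comparison asks what differed between the genotypes before injury.

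The values are log2 intensities minus the 75th percentile of the same array, so a difference of 1 is a doubling. The intensity at that percentile ran from 368.7 to 580.4 over the 6 arrays, and from 51.9% to 56.1% of spots were well above the background. Replicates 1, 2 and 3 of wild type lay on slides 4, 1 and 3, and those labelled Card9-/- on slides 4, 2 and 2. Only slide 4 held both genotypes of day 0, so slide and genotype cannot be fully told apart. Pairwise correlations across genes were 0.9794 to 0.9873 within wild type, 0.9659 to 0.9883 within Card9-/- and 0.9718 to 0.9819 between the genotypes. Over all genes it was replicate 3 labelled Card9-/- that lay farthest off: it correlated at 0.9659 and 0.9718 with replicates 1 and 2 of its group and at 0.9718 to 0.9748 with wild type, while replicates 1 and 2 correlated at 0.9883 with each other and at 0.9752 to 0.9819 with wild type. The colon epithelial markers Cdx1, Cdx2, Krt20, Slc26a3, Muc2 and Car1 were well above background on all 6 arrays. In their Hox genes replicates 1 and 2 labelled Card9-/- stood apart from replicate 3 and from the wild-type arrays. For genes and lists in which these arrays read apart, values are also given without them. Which omission is shown was chosen from the same values. A call gained by leaving out an array therefore describes the arrays and is not a test of genotype. Leaving out replicates 1 and 2 leaves 1 array labelled Card9-/- at day 0, which is then assumed to vary like the arrays of the other groups.

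The Card9 probe went against the genotype labels. Its 60 bases lie at chr2:26208462-26208521 on the minus strand of mm9, the build of the array's own coordinates, and they are shown because every statement on Card9 here rests on them.
Card9 probe: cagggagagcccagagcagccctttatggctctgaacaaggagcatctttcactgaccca
The wild-type arrays read -6.60, -5.84 and -5.74 and the arrays labelled Card9-/- read -1.52, -1.36 and -0.72. All 3 labelled Card9-/- were above all 3 wild type, and the signal was well above background on 3 of 3 arrays labelled Card9-/- and on 0 of 3 wild-type arrays. The difference was 4.86 ± 0.67 (log2, SE; 95% interval 3.47 to 6.24), with an adjusted p of 0.01 by limma with Benjamini-Hochberg adjustment over all genes. As the wild-type level has only a bound, this is at least 11.4-fold: the mean of the labelled group against the lowest signal of a spot well above background, or the probe's own where higher, on the wild-type arrays. The arrays of other mice at the later days had the same direction, with means of -5.43 ± 0.75 (SD, n = 5) in wild type and -0.58 ± 0.10 (SD, n = 4) in Card9-/- at day 7, and of -5.74 ± 1.60 (SD, n = 5) and -0.94 ± 0.25 (SD, n = 5) at day 12. The differences there were 4.85 and 4.81, with adjusted p of 0.000454 and 0.000199 in the same limma model. The sources used here do not give which exons the allele lacks, and a probe beyond the deleted exons would not check the genotype. Why the signal was higher in the arrays labelled Card9-/- was not tested. Whether the genotype labels were exchanged was not tested either, and under exchanged labels every genotype difference given here would change sign. The groups are named as labelled. The Card9 call at day 0 was lost when the slide was a block (4.64, adjusted p = 0.131) and when the 6 arrays were fitted alone (4.86, adjusted p = 0.314), and on the slide that held both replicates 1 the difference was 5.08. It was also lost without wild-type replicate 1, 2 or 3 (adjusted p = 0.0975, 0.0653 and 0.0529) and without replicate 2 labelled Card9-/- (0.0721), at differences of 4.59 to 5.02.

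**Figure D1:**
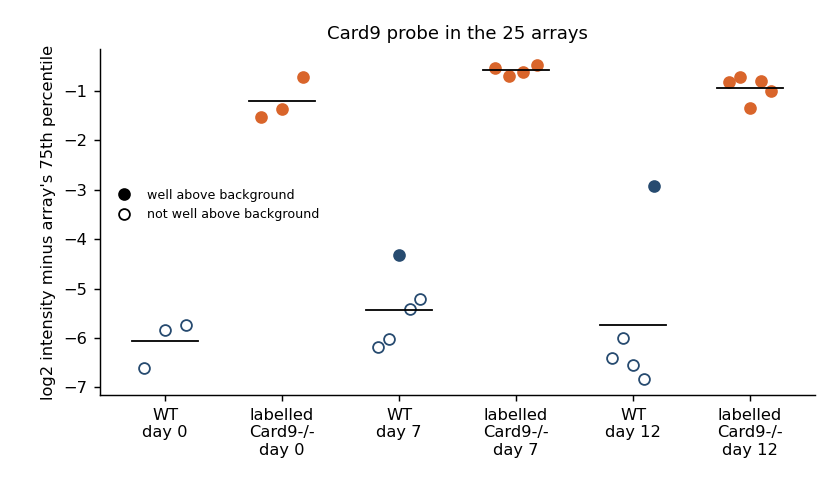
Log2 intensity of the Card9 probe minus each array's 75th percentile (vertical axis) in the 25 arrays by genotype and day; each point is 1 mouse, filled where the signal was well above background, and bars are group means. All arrays labelled Card9-/- lie between -1.52 and -0.48, above all wild-type arrays, whose highest is -2.93 at day 12.

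Beyond Card9, no gene passed the threshold before DSS. Of 25502 genes tested, 1 was called at an adjusted p under 0.05, which is 0.00392%, and it was Card9. At an unadjusted p under 0.05 there were 1268 genes (4.97%), 721 higher (2.83%) and 547 lower (2.14%) in the arrays labelled Card9-/-. The values of the groups did not overlap for 4122 of 25417 genes with 6 values (16.2%), 10.5% higher and 5.74% lower. The median difference over all genes was 0.04. Leaving out 1 array gave 58 calls without replicate 3 labelled Card9-/-, 5 without its replicate 1 and 0 without each of the other 4 in turn, and 21 without replicates 1 and 2 together, where the labelled group was 1 array and the other groups supplied the spread. The median SE was 0.28, and the 95% interval of a typical gene reached 0.59 to either side of its difference. The genes below are given as values: apart from Card9, none of their day 0 differences passed the adjusted test.

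Among the genes of smallest p, 4 belonged to 1 cluster. Gasdermin C proteins are pore-forming proteins of gut epithelium, and their genes are neighbours on mouse chromosome 15. Gsdmc read 6.69, 6.91 and 6.42 in wild type and 5.52, 4.55 and 5.58 in the arrays labelled Card9-/-. Gsdmc3 read 7.36, 7.62 and 7.13 against 6.60, 5.5 and 6.10. Gsdmc4 read 7.08, 7.33 and 6.83 against 5.94, 4.94 and 6.08. In all 3, each array labelled Card9-/- lay below each wild-type array, replicate 2 the lowest. The differences were -1.46 ± 0.34, -1.31 ± 0.31 and -1.43 ± 0.36 (log2, SE), that is 2.75, 2.47 and 2.69-fold lower, with adjusted p of 0.521, 0.541 and 0.575 by limma. The related Gsdmcl-ps, which its name marks as a pseudogene, read 0.92, 1.88 and 1.01 against -0.59, -1.13 and -0.41, a difference of -1.97 ± 0.37 (adjusted p = 0.236, limma). These copies are near-identical, so the probes may not tell them apart and the 4 values are not independent. Of the gasdermins outside the cluster, chosen after the values were seen, Gsdmd differed by -0.07 ± 0.20 and Gsdma by -0.14 ± 0.28, and Gsdma2 was well above background on 1 array of the 6. Gsdme read 1.69, 1.75 and 1.75 against 3.32, 3.11 and 1.80, high in replicates 1 and 2 labelled Card9-/- alone, and its difference of 1.01 was 0.08 without them. The other gasdermin C-like genes, also chosen after their values were seen, were dim and overlapped between the groups: Gsdmcl1 differed by -0.56 ± 0.70, and Gsdmcl2 was well above background on 1 array of the 6. At days 7 and 12 the Gsdmc difference was -0.09 and 0.01.

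The smallest p among genes that read higher, after Card9, belonged to Slc28a2 and Coq4. Slc28a2, a sodium-coupled purine nucleoside transporter, read -4.49, -3.41 and -3.33 in wild type and -1.57, -0.95 and -1.67 in the arrays labelled Card9-/-. Only 2 wild-type arrays were well above background for it. The groups did not overlap, at a difference of 2.35 ± 0.44 (adjusted p = 0.236, limma). This difference was 1.27 after normexp background correction and 2.07 without replicates 1 and 2 labelled Card9-/-. Coq4, which is needed for coenzyme Q synthesis, read 1.40, 1.49 and 1.11 against 2.29, 2.29 and 1.76. Its difference was 0.77 ± 0.15 (adjusted p = 0.236, limma), or 0.42 without them and 0.95 without replicate 3 (adjusted p = 0.00942, limma). Coq10b, a coenzyme Q-binding protein of mitochondria, read 0.59, 0.42 and 0.37 against 1.10, 1.24 and 1.19, higher by 0.72 ± 0.19. Ffar4, the receptor for long-chain fatty acids also called GPR120, read -0.69, -0.43 and 0.79 against 1.15, 1.13 and 1.19. Wild-type replicate 3 lay close to the other group, and the difference was 1.27 ± 0.31. Pex11a, which helps peroxisomes divide, read 3.04, 3.03 and 3.21 against 4.00, 3.84 and 3.51, a difference of 0.69 ± 0.17. Metrnl, a secreted meteorin-like protein, read 3.23, 3.33 and 3.23 against 3.81, 4.16 and 3.92. The wild-type values were tight, and the difference was 0.69 ± 0.18. The 8 others named by the same rule were Adap1, Usp12, Tlcd2, Fam83b, Aspa, Zdhhc23, Idnk and Mocos, with differences from 0.41 (Idnk) to 1.03 (Fam83b) and adjusted p from 0.357 to 0.609.

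Outside the gasdermins, 11 genes of lower signal were named. Slc16a6, a monocarboxylate transporter of the family that carries ketone bodies, read 1.55, 1.75 and 1.55 in wild type and 0.96, 0.99 and 0.93 in the arrays labelled Card9-/-. The values within each group were tight, and the difference was -0.66 ± 0.14 (adjusted p = 0.284, limma). Grpr, the receptor for gastrin-releasing peptide, read 1.06, 0.66 and 0.55 against -0.32, -0.63 and -0.08, a difference of -1.10 ± 0.22. Clca3a1, of the calcium-activated chloride channel regulators, read 0.26, 0.44 and 0.27 against -0.91, -1.07 and -0.63. Each array labelled Card9-/- was lower, by -1.19 ± 0.30 between the means. Rprm, known as a p53 target that halts the cell cycle, read 1.12, 0.58 and 0.54 against -2.12, -1.62 and -0.01, with replicate 3 nearest to wild type, and its difference of -2.0 was -0.76 without replicates 1 and 2. Pla2g4c, a cytosolic phospholipase A2, read 0.01, 0.70 and -1.02 against -1.05, -5.99 and -3.82. Its replicate 1 labelled Card9-/- almost met the lowest wild-type array. The difference of -3.51 ± 0.85 (adjusted p = 0.551, limma) became -4.80 (adjusted p = 0.0164, limma) without that array. Replicates 2 and 3 labelled Card9-/- were not well above background, so the size of both differences is uncertain. After normexp background correction of all 6 arrays the difference was -1.81. Havcr2, which encodes the immune receptor TIM-3, read -4.12, -4.30 and -4.02 against -7.28, -6.96 and -5.51 and was not well above background in any array labelled Card9-/-, so that only a bound of at least 1.41-fold can be given. Fam221a, Nav1, Slc35f2, Islr2 and Mthfd1l made up the rest, with differences from -0.62 (Mthfd1l) to -1.89 (Islr2). No more than 1 of these genes (Slc16a6, at day 7) passed the test at a later day.

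**Figure D2:**
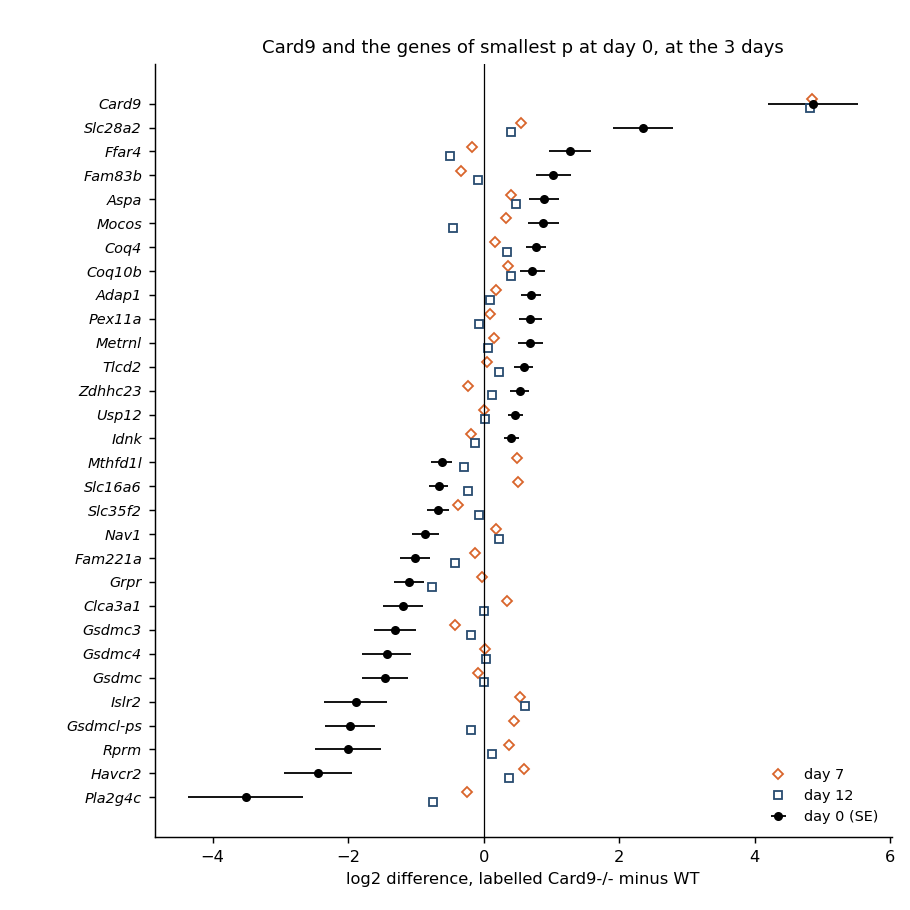
Log2 difference, labelled Card9-/- minus wild type (horizontal axis), for Card9 and the 29 other genes named by the smallest-p rule (vertical axis); black points are day 0 with bars of 1 SE, diamonds day 7 and squares day 12. Card9 stands at 4.86, 4.85 and 4.81 on the 3 days, while the others were chosen by their day 0 p, and 15 of the 29 have the same sign at day 7.

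Hox genes differed widely between the mice labelled Card9-/-. Hox transcription factors keep the position of a cell along the gut, with paralogue 13 genes marking the far end of the colon and rectum and lower paralogues marking more upstream gut. Hoxb13 read 6.83, 6.51 and 6.50 in wild type and 1.52, 3.24 and 6.95 in the arrays labelled Card9-/-. Far below the rest were replicates 1 and 2, while replicate 3 was the highest of the 6. The group difference was -2.71 ± 0.88 (adjusted p = 0.664, limma), and without replicates 1 and 2 labelled Card9-/- it was 0.34. Without replicate 3 it was -4.23, and Hoxb13 was then called (adjusted p = 0.00942, limma). Hoxb8 read -3.61, -3.37 and -4.90 against 1.78, 1.28 and -3.89, and Hoxd4 read -3.82, -3.88 and -4.73 against 0.55, 0.34 and -4.26. Hoxb6 read -1.63, -1.55 and -1.03 against 2.57, 2.00 and -1.80, and Hoxb7 read -1.96, -1.67 and -1.77 against 2.51, 1.81 and -2.43. In these 4 the same replicates 1 and 2 were high and replicate 3 lay with wild type, at group differences of 3.69, 3.02, 2.33 and 2.43, which were 0.08, -0.12, -0.39 and -0.63 without that pair. Only 2 wild-type arrays were well above background for Hoxb8 and for Hoxd4, and for Hoxd4 replicate 3 was not. After normexp background correction their differences were 2.76 and 2.02. Hoxd13 read -4.20, -2.84 and -4.17 against -7.38, -7.04 and -3.58, with replicates 1 and 2 the lowest and not well above background, and the difference was 0.15 without them. Hoxa10, by contrast, spanned only 0.69 to 1.06 over the 6 arrays.

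**Figure D3:**
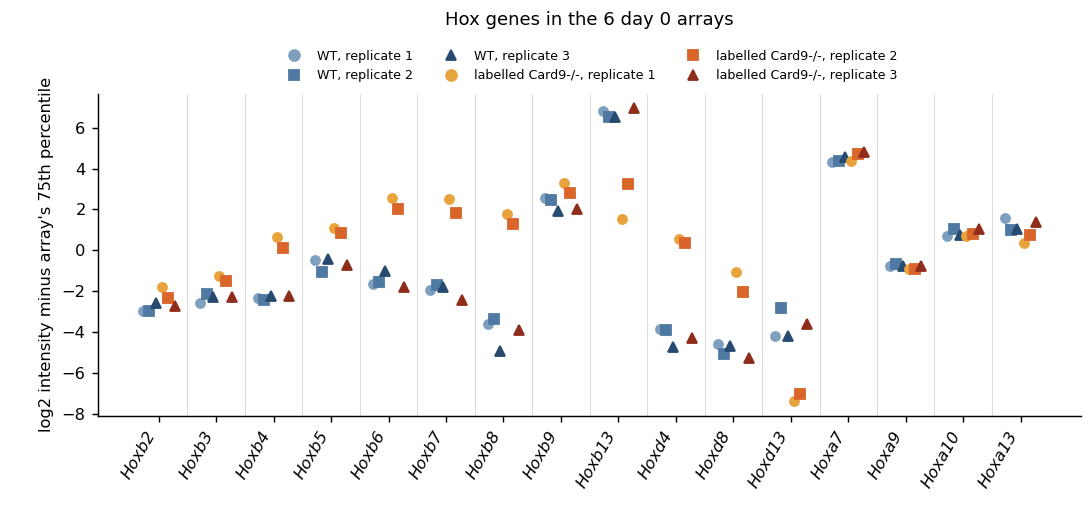
Log2 intensity minus the array's 75th percentile (vertical axis) of 16 Hox genes (horizontal axis) in the 6 day 0 arrays, 1 point per mouse. Replicates 1 and 2 labelled Card9-/- lie above the rest from Hoxb2 to Hoxb8 and below it at Hoxb13 and Hoxd13, while replicate 3 lies with wild type.

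With all 6 arrays no Hox gene was called, of 22 tested with paralogue numbers 1 to 9 (3 higher at an unadjusted p under 0.05, median 0.51) and 9 with numbers 10 to 13 (1 lower, median 0.53). The median of the latter had no stable sign: it was -0.38 with the filter of 13 arrays, -0.01 in the authors' table of normalised values and -0.09 without replicate 3 labelled Card9-/-, and the mean was -0.07. The median of the former was 0.01 without replicates 1 and 2. A list of 11 Hox genes of upstream position had a mean, against the wild-type day 0 mean, of 2.72, 2.49 and -0.07 in replicates 1, 2 and 3 labelled Card9-/- and of 0.14, -0.09 and -0.05 in wild type. The same mean ran from -0.59 to 3.00 over the wild-type arrays of day 7 and from -0.58 to 1.62 over those of day 12, so that 1 wild-type mouse, replicate 1 of day 7 after DSS, reached the level of the pair and the next highest wild-type array did not. For Hoxb13, however, that mouse read 5.56, while replicates 1 and 2 labelled Card9-/- at day 0 read 1.52 and 3.24. The mean of the upstream list ran from 0.21 to 0.51 and from -0.53 to 0.06 in the Card9-/- arrays of days 7 and 12. With this mean as a covariate Card9 was called, with a difference of 5.23 (adjusted p = 0.0255, limma), and no other gene was. Whether a more upstream piece of colon was sampled in these 2 mice was not tested, since no label gives the position.

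Osr2, a zinc finger transcription factor chosen after the values were seen, read far apart between the mice labelled Card9-/-. It is known for roles in mesenchyme. Its probe, shown because the value rests on it alone, lies at chr15:35230691-35231706 of mm9 on the plus strand, a span longer than its 60 bases, so it crosses an intron.
Osr2 probe: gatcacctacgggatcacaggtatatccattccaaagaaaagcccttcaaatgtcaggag
It read -6.63, -7.03 and -6.58 in wild type and 1.00, -0.22 and -4.55 in the arrays labelled Card9-/-. High signal was seen in replicates 1 and 2, and the third was not well above background. No wild-type array before DSS was well above background, so only a bound of at least 10.9-fold can be given (adjusted p = 0.635, limma). The bound for Card9 was 11.4-fold. Without replicates 1 and 2 no array of either group was well above background, and no fold can be given. High Osr2 signal was not confined to mice labelled Card9-/-: wild-type replicate 1 of day 7 read 1.03. That array also had the highest mean of the upstream Hox list among wild-type arrays. Wild-type replicate 4 of day 12, the next highest in that mean, read -6.72 for Osr2. Whether Osr2 follows the Hox genes was not tested.

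Several genes of absorption, bile acids and fat use read higher on the same pair of arrays. Bile salts are taken up from the gut lumen by the transporter ASBT (Slc10a2) and leave the cell through OSTα-OSTβ (Slc51a and Slc51b), under control of the nuclear receptor FXR (Nr1h4). Slc10a2 read -0.75, -1.50 and -1.87 in wild type and 4.46, 3.67 and -0.32 in the arrays labelled Card9-/-. Slc51b read 2.49, 2.49 and 2.25 against 3.91, 4.07 and 2.76. In both, replicates 1 and 2 were high and replicate 3 was just above wild type, with differences of 3.98 ± 1.10 and 1.17 ± 0.31 (adjusted p = 0.639 and 0.635, limma). These were 1.05 and 0.35 without replicates 1 and 2, and 5.44 and 1.58 without replicate 3, where both genes were called (adjusted p = 0.0261 and 0.0253, limma). Of 15 bile acid genes 0 were called, 5 were higher at an unadjusted p under 0.05 and the median was 0.41, or 0.26 without replicates 1 and 2. Of 22 small intestine genes 0 were called, 6 were higher and the median was 0.98, or 0.27 without them. Of these genes 18 had positive and 4 negative differences. The sucrase-isomaltase gene Sis read -5.11, -4.85 and -5.74 against 1.51, -0.71 and -3.76, with all 3 arrays labelled Card9-/- above wild type and replicate 1 the highest. It was not well above background on the wild-type arrays nor on replicate 3, which gives at least 13.2-fold with all 6 arrays and no fold without replicates 1 and 2. The transcription factor gene Gata4 and the transporter gene Abcc2 were likewise well above background in replicates 1 and 2 alone, at least 1.88-fold and 1.50-fold higher. The fatty acid-binding protein gene Fabp1 read -2.75, -2.75 and -3.10 against 0.62, -0.92 and -2.83, and Mttp, which loads fat onto lipoproteins, read -4.65, -4.21 and -4.03 against -1.33, -3.31 and -4.46. Both were highest in replicate 1, and their differences of 1.82 and 1.27 were 0.03 and -0.16 without replicates 1 and 2. Mttp was well above background on only 2 wild-type arrays and not on replicate 3 labelled Card9-/-, so the size of its difference is uncertain. The bile acid-binding Fabp6 read 0.61, 0.60 and 0.33 against 1.71, 0.55 and 0.77, and Apoa4 was well above background on 1 array of the 6. Apart from Slc10a2, the small intestine markers named were chosen after their values were seen.

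The same order of arrays held for fatty acid genes. PPARα and PPARγ are nuclear receptors that switch on fatty acid oxidation, and Pdk4 is a kinase that turns cells from glucose to fat. Pdk4 read -1.66, -0.92 and -1.0 in wild type and 3.17, 2.56 and -0.58 in the arrays labelled Card9-/-, with replicates 1 and 2 high. Its difference was 2.91 ± 0.84 (adjusted p = 0.645, limma), or 0.61 without them and 4.06 without replicate 3 (adjusted p = 0.0309, limma). Cpt2, the inner carnitine palmitoyltransferase, read 4.56, 4.39 and 4.52 against 5.15, 5.09 and 4.64, a difference of 0.47 that was 0.14 without replicates 1 and 2. Of 37 genes of the list 0 were called, 9 were higher and 0 lower at an unadjusted p under 0.05, and the median was 0.36, or 0.13 without replicates 1 and 2. Of 18 glucuronosyl- and sulfotransferase genes, which conjugate steroids, bilirubin and drugs, 6 were higher, 0 were called and the median was 0.63, or 0.41 without them and 0.19 with the Hox covariate. Papss2, which makes the sulfate donor, read 6.14, 6.01 and 5.93 against 6.71, 6.83 and 6.32, a difference of 0.59 that was 0.29 without them. Among hormone genes, neurotensin (Nts) read -3.31, -3.63 and -3.42 against 2.90, 1.85 and -3.05, and secretin (Sct) 3.85, 3.82 and 4.17 against 6.45, 5.94 and 4.08. Both were high in replicates 1 and 2 alone, and their differences of 4.02 and 1.54 were 0.41 and 0.13 without these. In the opposite direction the proton-potassium pump Atp12a read 2.51, 1.28 and 1.09 against -5.14, -4.07 and 2.38, and the glucose-6-phosphate transporter family gene Slc37a2, chosen after the values were seen, read 2.55, 1.79 and 1.06 against -6.30, -4.51 and 3.24. In both, replicate 3 lay within or above the wild-type values. Replicate 1 was not well above background for Atp12a, nor were replicates 1 and 2 for Slc37a2. The differences of these genes are therefore of uncertain size. Their differences of -3.90 and -4.32 were 0.76 and 1.44 without replicates 1 and 2, and both genes were called without replicate 3 (adjusted p = 0.00942 and 0.04, limma).

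**Figure D4:**
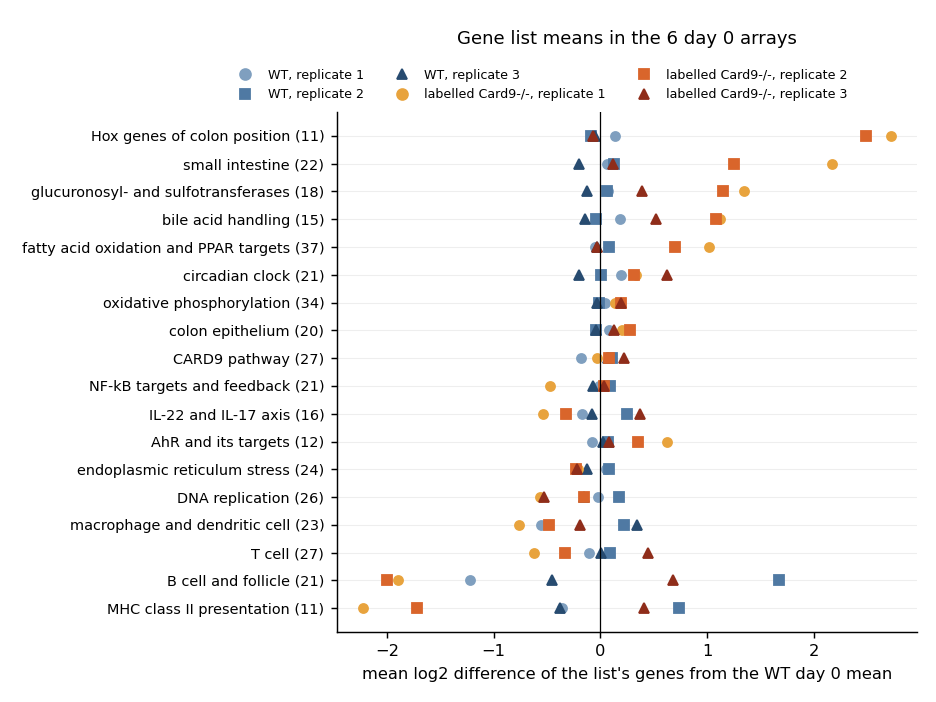
Mean log2 difference of each gene list from the wild-type day 0 mean (horizontal axis) in the 6 day 0 arrays, 1 point per mouse; the number of genes tested stands beside each list. Replicates 1 and 2 labelled Card9-/- are highest for Hox position (2.72 and 2.49) and lowest for MHC class II (-2.22 and -1.72), while the clock list is highest in replicate 3 (0.62).

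MHC class II genes had the lowest median of the 51 lists. These genes encode the molecules with which dendritic cells, macrophages, B cells and stimulated epithelium show peptides to CD4+ T cells. In bulk tissue such as this, fewer cells of a type and less RNA per cell cannot be told apart. The H2-Aa probe is shown because the class II values begin with it, and it lies at chr17:34421285-34421344 on the minus strand of mm9.
H2-Aa probe: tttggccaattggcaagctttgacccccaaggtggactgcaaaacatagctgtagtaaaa
H2-Aa read 1.67, 1.72 and 1.23 in wild type and -1.23, -0.70 and 1.29 in the arrays labelled Card9-/-. H2-Ab1 read 4.94, 5.19 and 5.10 against 2.67, 3.35 and 4.98. Cd74, the invariant chain that guards the peptide groove, read 3.79, 3.93 and 3.65 against 0.96, 1.88 and 3.87. In each, replicates 1 and 2 were low and replicate 3 lay within the wild-type range. H2-Eb1 read 4.00, 4.85 and 4.62 against 2.23, 2.98 and 4.50, and H2-DMb1, a chain of the peptide exchanger, read 1.83, 1.38 and 1.15 against -0.74, -0.07 and 1.58. The differences were -1.75 ± 0.47, -1.41 ± 0.41, -1.55 ± 0.51, -1.25 ± 0.41 and -1.20 ± 0.49 in that order, with adjusted p from 0.635 to 0.904 by limma. Without replicates 1 and 2 they were -0.25, -0.10, 0.08, 0.01 and 0.13. The class II transactivator Ciita read -0.29, -3.71 and -4.60 against -4.38, -4.55 and -1.16, with no order between the groups. Of 11 genes 0 were called, 5 were lower at an unadjusted p under 0.05 and all 11 differences were negative, with a median of -1.20. That median was 0.38 without replicates 1 and 2 labelled Card9-/-, -1.91 without replicate 3, and -0.29 with the Hox covariate. Without replicate 3, H2-Aa (-2.51, adjusted p = 0.00942), H2-Ab1, H2-Eb1 and Cd74 were among 58 genes called.

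Class II genes share a promoter layout in which a Y box, a CCAAT element bound by NF-Y, lies just upstream of the start. RefSeq promoters (GRCm38.p6), 250 bases before to 50 after the start, are shown for the class II members with an entry whose values are given above, in capitals CCAAT or its reverse complement ATTGG. H2-Aa lies at chr17:34287774-34288073 (minus strand) and H2-Eb1 at chr17:34305617-34305916 (plus strand).
H2-Aa promoter: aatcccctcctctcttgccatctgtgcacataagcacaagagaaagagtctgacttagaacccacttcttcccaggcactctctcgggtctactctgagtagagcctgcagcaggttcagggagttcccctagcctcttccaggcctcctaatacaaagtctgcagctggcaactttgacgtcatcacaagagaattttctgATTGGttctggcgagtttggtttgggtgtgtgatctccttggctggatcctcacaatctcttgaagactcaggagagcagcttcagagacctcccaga
H2-Eb1 promoter: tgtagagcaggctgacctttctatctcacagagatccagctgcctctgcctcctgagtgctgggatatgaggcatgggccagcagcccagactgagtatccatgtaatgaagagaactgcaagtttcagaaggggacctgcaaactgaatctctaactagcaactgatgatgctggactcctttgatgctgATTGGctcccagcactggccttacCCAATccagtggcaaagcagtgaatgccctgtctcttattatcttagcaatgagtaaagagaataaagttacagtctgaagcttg
The H2-Aa window held 1 match and the H2-Eb1 window 1 on each strand. Of 32544 RefSeq promoters of this length, 37.4% hold the letters on either strand, so a match alone describes little.

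**Figure D5:**
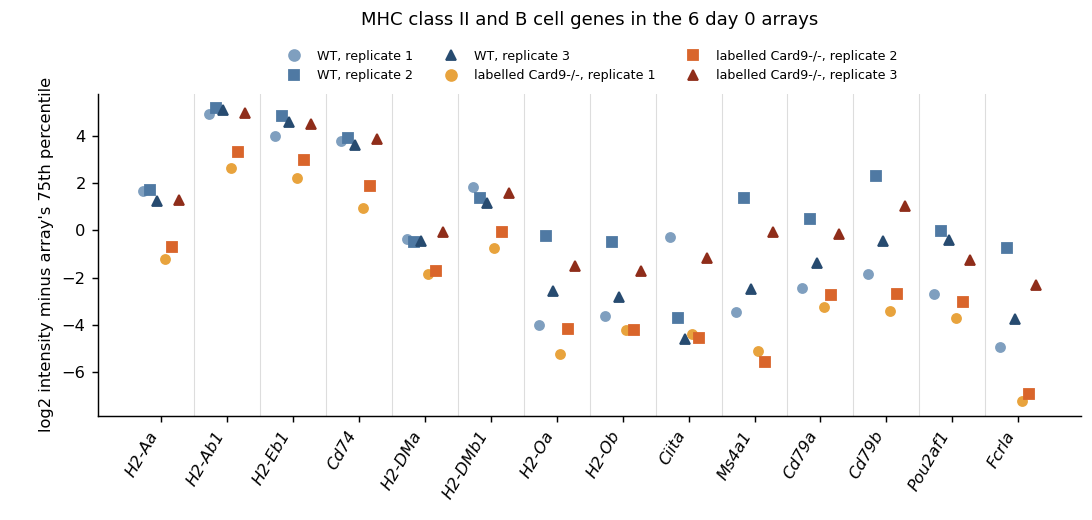
Log2 intensity minus the array's 75th percentile (vertical axis) of MHC class II genes and B cell genes (horizontal axis) in the 6 day 0 arrays, 1 point per mouse. Replicates 1 and 2 labelled Card9-/- are the lowest for H2-Aa, H2-Ab1 and Cd74, while among B cell genes wild-type replicate 2 is the highest.

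Lists of cells that carry class II did not all follow the order of arrays seen for the class II genes, and their part in the class II values was not tested. The B cell list mean was -1.22, 1.67 and -0.45 in wild type and -1.90, -2.0 and 0.68 in the arrays labelled Card9-/-. The highest was thus wild-type replicate 2, and the wild-type arrays were themselves far apart. Ms4a1 (CD20) read -3.47, 1.36 and -2.48 against -5.14, -5.60 and -0.05, a difference of -2.07 that was 1.48 without replicates 1 and 2. Its signal was not well above background on those 2 arrays, while Cd79a and Cd79b were well above background on all 6 arrays. Of 21 B cell genes 0 were called, 1 was lower at an unadjusted p under 0.05, and the median of -0.95 was 0.85 without replicates 1 and 2. Macrophage and dendritic cell genes had list means of -0.56, 0.22 and 0.34 against -0.76, -0.48 and -0.19, with 0 of 23 called, 2 lower and a median of -0.60, or -0.16 without replicates 1 and 2 labelled Card9-/-. Wild-type replicate 1 lay below replicate 2 of that group here, and replicate 3 lay below the other wild-type arrays. Cd68, a lysosomal protein of macrophages, read 0.89, -0.66 and -0.14 against -1.68, -1.39 and -1.04, so here replicate 3 lay with its group, at -1.40 ± 0.41 (adjusted p = 0.646, limma). T cell genes had list means of -0.11, 0.09 and 0.01 against -0.62, -0.33 and 0.45, with 0 of 27 called and a median of -0.08, or 0.48 without replicates 1 and 2. The costimulatory receptor gene Cd28 read -3.22, -3.27 and -2.67 against -4.29, -4.39 and -3.47. Neutrophil genes had 0 of 18 called, 3 lower and a median of -0.12, and plasma cell genes 0 of 11 called, 3 lower and a median of -0.33.

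The CARD9 pathway itself showed no difference past the test apart from the Card9 probe. Of 27 members tested 1 was called, 2 were higher at an unadjusted p under 0.05, and the median was -0.01. The receptor genes Clec7a and Clec4n differed by -0.64 ± 0.53 and -0.78 ± 0.53, and Clec4e and Clec4d were not well above background on any of the 6 arrays. Syk read 3.44, 3.40 and 3.03 in wild type and 2.45, 3.19 and 3.26 in the arrays labelled Card9-/-, a difference of -0.32 ± 0.25. The partners Bcl10 and Malt1 differed by 0.17 ± 0.12 and 0.18 ± 0.13. Malt1 read 0.80, 0.81 and 0.63 against 0.88, 0.89 and 1.03, slightly higher in every array labelled Card9-/-. Ikbkg, the regulatory subunit of the IKK complex, read -1.31, -1.14 and -1.11 against -0.87, -0.70 and -1.0, at 0.33 ± 0.13 (adjusted p = 0.855, limma). Of 21 NF-kB targets 0 were called and the median was 0.04. Relb, an NF-kB subunit that NF-kB itself induces, read 2.54, 2.27 and 2.45 against 2.64, 2.76 and 2.98, at 0.37 ± 0.12 (adjusted p = 0.664, limma). Traf1 read 1.41, 1.10 and 1.10 against 2.32, 2.14 and 1.38, a difference of 0.74 that was 0.18 without replicates 1 and 2.

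The cytokine genes Il22 and Il17a were too dim to compare. Together with Il6, they were not well above background on any of the 6 arrays, so a difference in them was not detectable here. The receptors in epithelium were measured: Il22ra1 read 0.90, 0.62 and 0.77 against 0.84, 0.87 and 0.65, and Il17rc read 5.91, 5.69 and 5.61 against 5.65, 5.89 and 5.99, with no order between groups. Of 16 genes of this axis 0 were called, 0 had an unadjusted p under 0.05, and the median was 0.08. Ccr6, the chemokine receptor of Th17 cells, innate lymphoid cells and B cells, read -3.01, 0.30 and -2.47 against -4.92, -5.06 and -1.08, the order of arrays seen for B cell genes. Il22ra2, the soluble decoy receptor of IL-22, read -0.93, 1.41 and -0.09 against -1.99, -1.62 and 0.69. The differences of -1.96 and -1.10 were 0.65 and 0.56 without replicates 1 and 2. Ccr6 was not well above background on replicates 1 and 2 labelled Card9-/-, so the size of its difference is uncertain.

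AhR is a receptor for aromatic ligands, including bacterial indoles, and Cyp1a1 is its best-known target. Cyp1a1 read -6.52, -6.96 and -7.13 in wild type and -4.10, -4.73 and -6.20 in the arrays labelled Card9-/- and was well above background on 1 of the 6 arrays, replicate 1 labelled Card9-/-, so that no fold can be given (adjusted p = 0.789, limma). Ahr read 1.26, 1.31 and 1.21 against 1.04, 1.01 and 1.15, lower in each array labelled Card9-/- by -0.19 ± 0.19 between the means. The targets Ahrr and Tiparp differed by -0.32 ± 0.44 and 0.14 ± 0.21, and Cyp1b1 was not well above background on any of the 6 arrays. Nfe2l2, which encodes the antioxidant regulator NRF2, read 4.25, 4.40 and 4.15 against 4.86, 4.72 and 4.62, at 0.47 ± 0.16 (adjusted p = 0.695, limma). Of 12 genes 0 were called, 3 were higher at an unadjusted p under 0.05, and the median was 0.16. Among 24 tryptophan and serotonin genes 0 were called, 1 was higher, 1 was lower and the median was 0.01. Ido1, the first enzyme of the kynurenine pathway, read -3.02, -6.17 and -3.07 against -2.34, -1.40 and -0.97, at 2.52 ± 0.89 (adjusted p = 0.774, limma). Wild-type replicate 2 was far below its group there. Kmo, a later enzyme of that pathway, read -3.62, -2.06 and -2.90 against -4.47, -4.28 and -3.54, at -1.24 ± 0.39 (adjusted p = 0.664, limma), and Tph1, which starts serotonin synthesis, read 1.23, 1.33 and 1.55 against 2.82, 2.34 and 1.05, a difference of 0.70 that was -0.32 without replicates 1 and 2.

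Antimicrobial and mucus genes included some of lower and some of higher signal. Angiogenins, intelectins and Reg4 are secreted by goblet, Paneth and related crypt cells. Ang read 6.98, 6.36 and 6.26 in wild type and 5.97, 4.10 and 5.09 in the arrays labelled Card9-/-, at -1.48 ± 0.40 (adjusted p = 0.635, limma). Reg4 read 5.67, 4.65 and 4.37 against 1.70, 1.07 and 4.33, at -2.53 ± 0.72 (adjusted p = 0.643, limma), or -0.56 without replicates 1 and 2 and -3.51 without replicate 3 (adjusted p = 0.0253, limma). The arrays did not keep 1 order: for Ang replicate 2 labelled Card9-/- was the lowest and replicate 1 close to wild type, while for Reg4 replicates 1 and 2 were low and replicate 3 met wild type. Itln1, an intelectin that binds microbial sugars and was chosen after the values were seen, read 6.17, 5.83 and 5.03 against 5.84, 2.19 and 2.93. It was called without replicate 1 labelled Card9-/- (-3.11, adjusted p = 0.0342). Ang2 and Ang4, also chosen after their values were seen, differed by -1.70 ± 0.55 and -1.38 ± 0.65, and since the angiogenin copies are near-identical their probes may share signal. In the other direction, Reg3b, Reg3g and Saa3, also chosen after their values were seen, differed by 2.47, 2.24 and 2.05. Their 95% intervals were -1.21 to 6.14, -0.92 to 5.39 and 0.10 to 4.01. Of 39 antimicrobial genes 0 were called, 9 were lower, 1 was higher and the median was -0.16. Positive differences numbered 16 and negative ones 23. Among 27 goblet cell genes 0 were called, 2 were lower and the median was -0.04. Spink4, a trypsin inhibitor of goblet cells, read 8.58, 8.53 and 8.77 against 7.91, 7.42 and 8.04, at -0.84 ± 0.25 (adjusted p = 0.651, limma). It was called after quantile normalization (-0.89, adjusted p = 0.0422) and in the authors' table of normalised values (-0.90, adjusted p = 0.0248). Fcgbp, a mucus protein, read 9.47, 9.23 and 9.31 against 8.48, 8.28 and 8.83, at -0.81 ± 0.30 (adjusted p = 0.818, limma). For both, all 3 arrays labelled Card9-/- were below all 3 wild type.

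A knockout allele can bring a stretch of chromosome from another strain, so the genes around Card9 were examined. Of 216 other genes with a probe within 5 Mb of the Card9 probe 0 were called, 13 were higher and 5 lower at an unadjusted p under 0.05 (8.33%), and the median was 0.06. Over all genes tested the share at that threshold was 4.97% (2.83% higher and 2.14% lower), and the median was 0.04. Without replicate 3 labelled Card9-/- 2 of them, Coq4 and Il1f8, were called. The smallest p was that of Coq4, given above, 3443.8 kb away. Entr1, 29.9 kb away, read 1.12, 1.09 and 1.31 in wild type and 1.51, 1.71 and 1.46 in the arrays labelled Card9-/-, higher by 0.38 ± 0.13 (adjusted p = 0.744, limma). Genes that differ between C57BL/6 substrains had 0 of 6 called. Nnt, the mitochondrial transhydrogenase with a deletion in C57BL/6J, read 1.48, 1.50 and 1.54 against 2.24, 2.44 and 1.58. The signal was higher in replicates 1 and 2 and replicate 3 lay just above wild type, at 0.58 ± 0.16 (adjusted p = 0.643, limma). The difference was 0.07 without replicates 1 and 2, and without replicate 3 it was 0.83 and called (adjusted p = 0.0115, limma). Wdfy1, Ide, Entpd4 and Mmrn1 differed by -0.34, -0.16, -0.15 and 0.01.

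Clock genes had another order of arrays, with replicate 3 labelled Card9-/- as the farthest from wild type in the genes named here. The molecular clock pairs the activators Arntl (BMAL1) and Npas2 with the repressors Per1 and Per2 and with the output genes Dbp, Tef and Ciart, and its RNA levels depend on the hour at which a mouse is killed. Ciart read -4.19, -4.03 and -5.06 in wild type and -3.10, -2.46 and -1.48 in the arrays labelled Card9-/-, at 2.08 ± 0.57 (adjusted p = 0.639, limma). Bhlhe40, a clock repressor, read 1.56, 1.33 and 1.30 against 1.78, 1.98 and 2.17, at 0.58 ± 0.16 (adjusted p = 0.643, limma). Every array labelled Card9-/- was above wild type, replicate 3 the most. Of the others, chosen after their values were seen, Dbp read 3.22, 3.31 and 1.63 against 4.04, 4.15 and 4.96, at 1.67 ± 0.58. Arntl read 1.24, 1.17 and 1.53 against 0.73, 0.71 and 0.32, lower throughout, at -0.73 ± 0.29. Of 21 genes 0 were called, 6 were higher, 2 were lower and the median was 0.51. It was 0.69 without replicates 1 and 2 labelled Card9-/-, 0.30 without replicate 3 and 0.28 without wild-type replicate 3. At day 12, in other mice, Dbp (3.19, adjusted p = 0.00346), Tef (1.97, 0.00633), Ciart (2.69, 0.0107) and Nr1d2 (1.10, 0.0119) read higher in the Card9-/- arrays than in wild type of that day and were called by limma. The labels used here give no hour of killing, so hour and genotype cannot be told apart.

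Several broad lists leaned one way by little. All 26 DNA replication genes had negative differences, with a median of -0.45 and 0 called, and Tyms, the thymidylate synthase, read -2.15, -2.06 and -2.47 in wild type and -2.80, -2.51 and -2.59 in the arrays labelled Card9-/-. All 34 oxidative phosphorylation genes had positive differences, with a median of 0.16 and 0 called. The values of 27 were higher without overlap between groups, beside 10.5% of all genes. Ndufa4, a respiratory chain subunit, read 4.63, 4.84 and 4.71 against 5.21, 5.08 and 5.08. Of 24 endoplasmic reticulum stress genes 22 were negative, 6 were lower at an unadjusted p under 0.05, 0 were called and the median was -0.21. Pdia6, a chaperone that forms disulfide bonds, read 6.64, 6.69 and 6.52 against 6.35, 6.20 and 6.20, at -0.37 ± 0.11 (adjusted p = 0.655, limma), and Manf read 3.52, 3.66 and 3.27 against 2.84, 2.97 and 3.06. Of 47 interferon-stimulated genes 0 were called, 5 were higher and the median was 0.18, but -0.05 without replicate 3 labelled Card9-/- and 0.56 without replicates 1 and 2. The list mean was -0.24, 0.13 and 0.64 in replicates 1, 2 and 3. Of 20 colon epithelium genes 0 were called, 1 was higher (Car1, high in replicates 1 and 2, at 1.39 and at -0.01 without them) and the median was 0.16. Genes of 1 list are not independent, and over all genes tested 14758 of 25502 differences were positive.

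The differences seen before DSS were set beside those of other mice at days 7 and 12. There, 140 genes (0.549%) and 18 genes (0.0706%) of 25503 were called between genotypes, and 4207 (16.5%) and 2256 (8.85%) had an unadjusted p under 0.05. Of the 29 genes named by smallest p apart from Card9, 15 had the same sign at day 7 (51.7%) and 18 at day 12 (62.1%), beside 45.9% and 47.7% of all genes. Of the 1267 genes at an unadjusted p under 0.05 apart from Card9, 480 (37.9%) and 518 (40.9%) had the same sign. The difference itself was tested with an interaction term. Between day 7 and day 0, 1 gene of 25502 was called (0.00392%, with 2947, or 11.6%, at an unadjusted p under 0.05): Slc16a6, at -0.66 at day 0 and 0.51 at day 7, a change of 1.17 ± 0.18 (adjusted p = 0.039, limma). Between day 12 and day 0, 1 was called (0.00392%, with 1742, or 6.83%, at an unadjusted p under 0.05): Ifit1, an interferon-induced antiviral gene, at 0.88 at day 0 and -1.81 at day 12, a change of -2.70 ± 0.38 (adjusted p = 0.0156, limma). Without replicate 3 labelled Card9-/- these counts were 78 and 52, and each was 0 without wild-type replicate 1 or 3 or without replicate 1 or 2 labelled Card9-/-. Without wild-type replicate 2 they were 0 and 1. For Card9 the change between day 0 and day 7 was 0.00 (adjusted p = 0.999).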

How the data were processed

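RNA of 6 day 0 colons (3 per genotype), of 25 on Agilent 1-colour mouse arrays, was measured. Per the submitters' processing notes, the authors extracted signals with Agilent Feature Extraction 10.7.3.1. The deposited processed signal is an intensity on a linear scale, background-subtracted per the file headers. The deposited table of normalised values is on the log2 scale (column medians 7.906 to 7.911, at least 0.9832 correlated with the scanner values; no source used here gives its normalization) and served as an alternative. It has no Card9 row. Feature Extraction's gIsWellAboveBG flag was used.

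The log2 processed signal minus the array's 75th percentile over non-control spots was computed, and flagged outlier spots were left out. Of 55681 probes, 36356 well above background on at least 3 of 25 arrays were kept. A gene was its probe of highest mean, named by RefSeq accession (27656 probes), symbol or synonym (3708) or as in the file (24317). limma 3.58.1 (R 4.3.3) fitted 6 groups to 25 arrays, and p-values (2-sided) were adjusted by Benjamini-Hochberg over 25502 genes and called under 0.05. Intervals are 95%. The model was run on simulated data with independent normal noise. Those data do not hold the split among the day 0 arrays labelled Card9-/-, so they do not test the model on it. Figures used Python 3.11.15 and matplotlib 3.10.9.

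Genes named were Card9, then the 14 higher and 15 lower genes of smallest p that had a symbol, were well above background on all arrays of a group and did not overlap, the 2 of smallest p per list, and any member of the CARD9, class II, IL-22, AhR, tryptophan and Hox lists. The comparison, the 51 lists (1057 of 1164 genes tested) and the rules were chosen with earlier results of these data known. Alternatives were normexp, quantile normalization, the authors' table, other filters, day 0 arrays alone, an intensity trend, slide or replicate as a block, Hox covariates, each probe on its own, and arrays left out. The values of a few list members are not reported here.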

Additional observations from a re-analysis of the deposited data

Results flagged for a closer look

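The genotype difference of Slc16a6, a monocarboxylate transporter, turned from -0.66 at day 0 to 0.51 at day 7, a signed change of 1.17 (log2) that passed the test across all genes. In wild type at day 7, replicate 3 read 1.16 for Slc16a6 and lay apart from the other 4 mice of its group. For Card9, wild-type replicate 5 of day 12 read -2.93 and lay apart from the other 4 mice of its group, nearer to the arrays labelled Card9-/-. Chance sets a value apart in this way in about 5% of groups. The groups of 3 at day 0 are too small for such a check.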

How the results depend on the processing

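The count of genes called before DSS (1, Card9) was 3 after quantile normalization (Card9, Spink4 and a long noncoding RNA of chromosome 15), 2 with each probe on its own, 0 with the 6 arrays alone, 21 without both replicates 1 and 2 labelled Card9-/- (1 array then left in that group, its spread taken from the others), and 0 to 58 with 1 array left out. The highest of this and of each range of counts below was without replicate 3 labelled Card9-/-. With the slide as a block it was 1, but not Card9. List members called besides Card9 were 0, but 1 after quantile normalization and 1 in the authors' table (Spink4 in both), and 0 to 14 with 1 array left out. Near Card9 they were 0, and 0 to 2 with 1 array left out. For Card9 (4.86) the adjusted p was 0.314 with the 6 arrays alone (4.86), 0.131 with the slide as a block (4.64), and 0.0116 to 0.0975 with 1 array left out (4.59 to 5.02). Elsewhere it was 2.10 after normexp (adjusted p = 0.00101), 4.66 after quantile normalization (0.00685) and 5.33 without both replicates 1 and 2 (0.0441). The cause was not tested.

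Genes whose genotype difference changed between day 7 and day 0 (1) were 0 after normexp, 0 without a filter, 2 with an intensity trend, 0 with the Hox position covariate, 2 with the Hox 10 to 13 covariate, 12 without both replicates 1 and 2, and 0 to 78 with 1 array left out. Between day 12 and day 0 (1) they were 2 after normexp, 3 with a filter of 13 arrays, 4 with a trend, 0 with the slide as a block, 0 with the Hox position covariate, 13 without both replicates, and 0 to 52 with 1 array left out.

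Signs turned with the Hox position covariate for Hoxb6 (-0.33), Hoxb7 (-0.23) and Hoxd8 (-0.20), whose own values enter that covariate. Without both replicates 1 and 2 they turned for Hoxb13 (0.34), Hoxb6 (-0.39), Hoxb7 (-0.63), Hoxd4 (-0.12), Hoxd8 (-0.47) and H2-Eb1 (0.01).

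The labels name no pairing of the mice. Deviations of same-numbered day 0 arrays correlated at 0.03, -0.03 and -0.02 over 16916 genes, and 0 of 3 wild-type arrays correlated best with its own number. Same-numbered arrays correlated at -0.26 to 0.16 at day 7 and at -0.20 to 0.29 at day 12. In groups this small such correlations cannot show whether mice were paired. With the replicate block 0 genes were called and Card9 was 4.86 (adjusted p = 0.316), with 1358 genes at an unadjusted p under 0.05.

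With 3 mice per genotype, 72.1% of genes had an SE under 0.5, and a difference in genes as dim as Il22 and Il17a was not detectable.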
